A study of Mus musculus with 14 samples.

Results

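Enhancers that carry an active histone signature before and after differentiation were examined as a set of 31791 regions, 21.8% of the 145840 H3K4me1 peaks of mouse embryonic stem cells (ESCs). They were chosen by measured values, namely the peak lists of H3K4me1 and H3K27ac in ESCs and in cells differentiated with retinoic acid (RA cells). A member is an H3K4me1 peak of ESCs that overlaps, by 1 bp or more, a peak of H3K4me1 in RA cells and a peak of H3K27ac in each of both cell states. A peak that touched an H3K27ac peak of 10000 bp or longer in either state was left out, which removed 7479 further regions present in the 4 lists. Overlap with the 4 lists is therefore no finding, and the amounts of H3K4me1 and H3K27ac in ESCs and RA cells are given as a description. The DNA methylation (5mC) of the regions took no part in the choice, but it was read in the same libraries.

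All cells came from R1, a male mouse ESC line maintained with LIF in serum medium with the 2i inhibitors PD0325901 and CHIR99021 and used at passages 20-23. The ESC group was kept for 2 days in that medium without 2i, and the RA group was grown for 4 days without LIF in 1 µM retinoic acid. The XEN group was driven for 9 days towards extraembryonic endoderm with retinoic acid at 0.1 µM plus Activin A, and took no part in choosing the regions. In ChIP-BS-seq, chromatin bearing a histone mark is precipitated and its DNA is then treated with bisulfite. 5mC is thus counted on the precipitated DNA, which is enriched for the mark. H3K4me1 and H3K27ac were each measured in 1 library of ESCs, 1 library of RA cells and 2 replicate libraries of XEN cells, 8 libraries in all. Each ESC and RA library held between 32305709 and 58803653 CpG counts, and each XEN library between 12147115 and 31345707.

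Enhancers are stretches of DNA that bind transcription factors and act on promoters at a distance. Their nucleosomes commonly carry H3K4me1, the monomethylated form of lysine 4 on histone H3, and acetylation of lysine 27 (H3K27ac) is added when p300 or CBP is recruited to them. 5mC is laid down at CpG sites by DNA methyltransferases and is usually low where factors are bound. ESCs grown with 2i have little 5mC, and de novo methylation follows when 2i is withdrawn or the cells differentiate.

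The median length of the members was 3529 bp (quartiles 2096 and 6084 bp, range 1000 to 104167 bp), against 1851 bp over all H3K4me1 peaks of ESCs and 3116 bp over the shared H3K4me1 peaks with H3K27ac in ESCs alone. A rule of overlap by 1 bp is met more readily by long peaks. The longest H3K27ac peak touching a member had a median length of 2612 bp in ESCs and 2773 bp in RA cells. Members were spread over the autosomes, with 818 on chromosome X. They were not all separate H3K27ac domains, since 30.3% of members shared an H3K27ac peak of ESCs with another member, and 33.6% shared one of RA cells. The 2 members just inside it, chr8:63431851-63438467 and chr8:63427213-63431213, touched the same H3K27ac peak of 9995 bp and had H3K4me1 5mC of 29.0% and 56.0% in ESCs. The 2 regions just outside, chr1:78594389-78604746 and chr6:31464511-31467846, each touched a peak of 10002 bp and had 35.0% and 67.1%. Neither transcription start sites nor genes were assigned, because the coordinates are of build mm9 and no annotation of that build was used, so promoters may be among the members. No sequence of a member is printed for the same reason.

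For the XEN libraries the names of the deposited tables and the sample labels assign the marks in opposite ways. The labels were followed, XEN libraries are called by their labelled mark, and every direction between the marks in XEN cells rests on the labels. Their counts and their 5mC are set beside those of both marks in ESCs and RA cells further on.

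5mC of the members was higher in RA cells than in ESCs in both marks. In H3K4me1 chromatin the median over members was 34.9% in ESCs (quartiles 24.8% and 46.7%, 31232 members with at least 30 CpG counts) and 50.9% in RA cells (36.7% and 64.4%, 31130 members). In H3K27ac chromatin it was 26.9% in ESCs (9.97% and 47.8%, 29424 members) and 40.7% in RA cells (14.2% and 62.1%, 29575 members). The wide lower range of H3K27ac came with 41.4% of members under 20% 5mC in ESCs, against 15.3% in H3K4me1, beside 25.6% and 8.01% over all H3K4me1 peaks. Over all H3K4me1 peaks of ESCs the medians were higher, 43.6% and 56.3% in H3K4me1 of ESCs and RA cells and 52.8% in H3K27ac of RA cells. The plot of 5mC by H3K27ac class sets members beside the H3K4me1 peaks shared by ESCs and RA cells that had no H3K27ac peak in either state, one in ESCs alone, or one in RA cells alone.

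**Figure D1:**
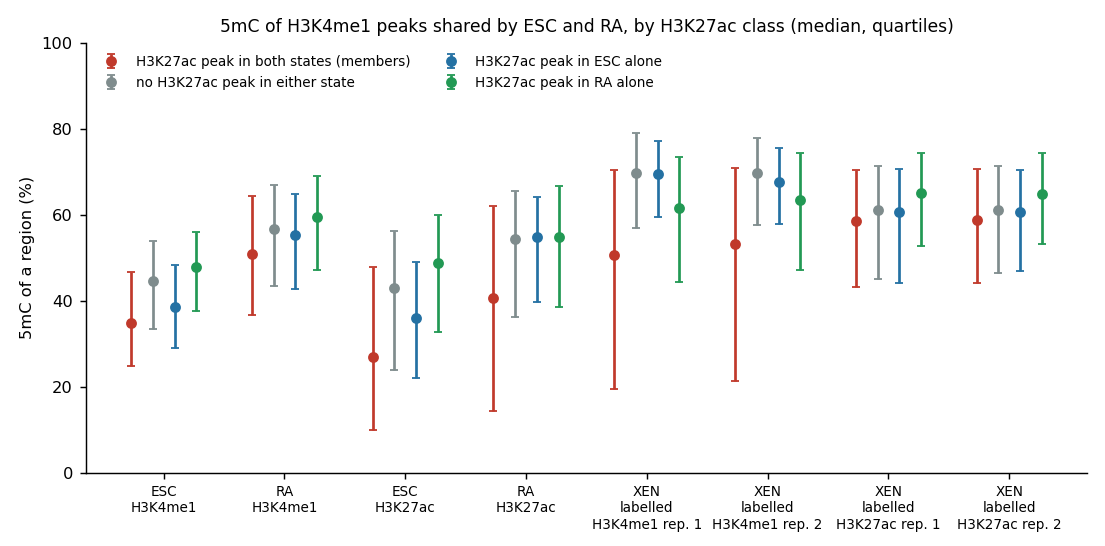
5mC of a region (%, vertical axis) in each of the 8 libraries (horizontal axis) for members and for 3 other classes of H3K4me1 peaks shared by ESCs and RA cells. Points are medians over regions with at least 30 CpG counts and bars run from the lower to the upper quartile. Members have the lowest median in each library, from 26.9% in H3K27ac of ESCs to 58.9% in XEN replicate 2 labelled H3K27ac.

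The change from ESCs to RA cells was tested in each region with Fisher's exact test on methylated and unmethylated counts, adjusted over all H3K4me1 peaks with at least 30 counts in both libraries. A region was called when the adjusted p was under 0.05 and 5mC differed by more than 20 percentage points. Such a test compares 1 library with 1 library, and the spread between cultures is not in it. Of 30825 members tested in H3K4me1, 9408 (30.5%) were called higher in RA cells and 95 (0.308%) lower. Over the 95012 peaks tested 31.3% were called higher and 0.557% lower, so the share of members called higher was close to that of all peaks. The median difference of the members was 14.6 points (quartiles 7.46 and 21.8), and 91.3% of them were higher in RA cells, called or not, beside 14.7 points and 89.1% over all peaks.

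In H3K27ac, 5559 of 28576 members (19.5%) were called higher in RA cells and 258 (0.903%) lower, beside 22.8% and 1.04% of the 63057 peaks tested. The median difference was 7.0 points (quartiles 0.901 and 17.4), and 79.6% of the members were higher in RA cells, beside 9.64 points and 80.8% over all peaks.

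A region is called an unmethylated region (UMR) here when its 5mC is under 20%. In H3K4me1, 4777 members were UMRs in ESCs and 1217 of them, 25.5%, were still under 20% in RA cells. Another 1798 were at 20 to 30% and 1762 (36.9%) were above 30%. Over all H3K4me1 peaks 27.2% of 10182 UMRs stayed under 20% and 37.8% passed 30%. In H3K27ac 9033 of 12104 members (74.6%) stayed under 20% and 1486 (12.3%) passed 30%, beside 67.2% and 17.95% over all peaks. These shares are a description over regions of single libraries, and regions are not replicates. Of 26048 members at or above 20% in H3K4me1 of ESCs, 218 (0.837%) were under 20% in RA cells, and in H3K27ac 343 of 16472 (2.08%) were, beside 0.692% and 1.61% over all peaks.

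Members under 20% in the 4 ESC and RA libraries together numbered 1174 of the 28445 covered in these libraries (4.13%). Counts per kb are given here after scaling each library to 1000000 CpG counts. These members were short, with a median length of 1828 bp, and dense in H3K27ac, at 3.65 and 4.41 scaled counts per kb in ESCs and RA cells against 1.28 and 1.29 over the covered members. Their median 5mC was 10.6% and 15.6% in H3K4me1 and 2.54% and 3.82% in H3K27ac. Members at 20% or more in these libraries were far more frequent, 15966 or 56.1%, and had a median length of 4208 bp. Such subsets were not formed over all H3K4me1 peaks, neither here nor for their XEN values.

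In the regions named for the largest rises, 5mC rose in both marks. The member chr10:120839287-120843202 led in both. Its H3K4me1 5mC was 18.6% in ESCs (95% exact interval 16.0 to 21.4, 835 counts) and 75.2% in RA cells (69.5 to 80.3, 258 counts). Its H3K27ac 5mC was 12.3% in ESCs (9.0 to 16.3, 334 counts) and 80.5% in RA cells (73.6 to 86.2, 164 counts). In XEN cells the libraries labelled H3K4me1 gave 86.4% and 89.0% and those labelled H3K27ac 82.8% and 89.1%. The region was thus low in the 2 ESC libraries and high in the other 6. The rise was 56.6 points in H3K4me1 (Fisher's exact test, adjusted p = 1.62e-60) and 68.2 points in H3K27ac (adjusted p = 4.98e-50).

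The next largest rises of H3K4me1 5mC were at chr18:75352764-75356487, from 25.7% to 78.7%, and at chr2:10310170-10314217, from 26.6% to 78.7%. H3K27ac 5mC rose there as well, from 29.2% to 76.1% and from 29.9% to 67.1%, and the XEN libraries lay between 73.6% and 84.7% at both regions. In H3K27ac the next largest rises were at chr13:31036907-31042021, from 19.5% to 80.6%, and at chr11:19746328-19753545, from 7.33% to 68.0%. Their H3K4me1 5mC went from 46.9% to 84.4% and from 17.2% to 63.5%. In each of these 5 regions the 4 XEN libraries were on the side of the RA libraries and above both ESC libraries.

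Falls were few, and the clearest was shared by the marks. The member chr17:46216567-46219370 had H3K4me1 5mC of 58.9% in ESCs (95% exact interval 52.8 to 64.8, 270 counts) and 29.6% in RA cells (25.6 to 33.8, 507 counts). Its H3K27ac 5mC was 57.0% in ESCs (46.7 to 66.9, 100 counts) and 23.9% in RA cells (21.2 to 26.9, 890 counts). The XEN libraries gave 32.5% and 23.1% where labelled H3K4me1 and 34.7% and 29.8% where labelled H3K27ac. Both ESC libraries were above the other 6. The fall was 29.3 points in H3K4me1 (Fisher's exact test, adjusted p = 4.02e-14), and the H3K27ac counts went from 100 to 890 in the same step.

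The region chr3:34384173-34386224 fell from 61.8% to 35.4% in H3K4me1 and from 51.5% to 18.6% in H3K27ac. A fall of H3K4me1 5mC from 37.0% to 12.1% at chr11:58121134-58123156 was not shared by H3K27ac, which was at 2.48% and 6.06%. Compared within the same bins, this region was 5.96 points higher in RA cells, so that its fall rests on which bins held the counts. The largest falls of H3K27ac 5mC were at chr19:14499602-14502419, from 60.9% to 19.9%, at chr2:26410966-26413520, from 66.7% to 29.2%, and at chr15:76384738-76387386, from 55.1% to 18.4%. At the first of these the H3K4me1 5mC was 38.9% and 33.1%, a smaller difference, while its H3K27ac counts were 110 and 887.

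More counts in RA cells went with falls of 5mC. The 95 members called lower in H3K4me1 had a median of 0.850 scaled counts per kb in ESCs and 2.64 in RA cells, while the 9408 called higher had 1.80 and 1.26. The 258 members called lower in H3K27ac had 0.742 and 2.75 H3K27ac scaled counts per kb, and the 5559 called higher had 1.13 and 0.739. Across members the log2 ratio of RA to ESC counts and the change in 5mC had a Spearman correlation of -0.30 in H3K4me1 (30825 members) and -0.41 in H3K27ac (28576 members), a description across regions that share the same libraries and the same counts. Over all peaks it was -0.28 and -0.40. The counts themselves were near balance, with median log2 ratios of -0.02 in H3K4me1 and 0.05 in H3K27ac, as is set by a rule that asks for peaks in both states.

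The change in 5mC varied with the length of the member. Members were split by length into 3 groups of 10597 regions. In the shortest (up to 2553 bp) the median change from ESCs to RA cells was 11.7 points in H3K4me1 and 2.99 points in H3K27ac. In the middle group it was 14.5 and 6.86 points. In the longest (from 4998 bp) it was 17.2 and 11.8 points. The share called higher in H3K27ac went from 7.96% in the shortest to 18.6% and 28.9%, and in H3K4me1 from 21.3% to 30.6% and 38.9%. Over all peaks of any length it was 22.8% in H3K27ac and 31.3% in H3K4me1, and shares by length were not computed there. In H3K27ac 7910 members of the shortest group and 10562 of the longest had enough counts to be tested.

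Within a member, 5mC depended on position against the H3K27ac peaks. The 200-bp bins of members were sorted into those in H3K27ac peaks of both states (42.6% of the bins), of ESCs alone (21.2%), of RA cells alone (12.4%) and outside H3K27ac peaks (23.9%). The bins in H3K27ac peaks of both states had the lowest 5mC in each of the 8 libraries. In H3K4me1 it was 26.2% in ESCs and 42.5% in RA cells, and in H3K27ac 14.4% and 20.9%. Outside H3K27ac peaks the values were 45.3% and 62.6% in H3K4me1 and 51.5% and 64.4% in H3K27ac. In ESCs and RA cells the H3K4me1 libraries thus had more 5mC than the H3K27ac libraries inside the shared acetylated bins. Outside all H3K27ac peaks they had less. The H3K27ac libraries of ESCs and RA cells held 0.3735 and 0.2945 scaled counts per kb there, against 2.64 and 3.07 in the shared bins. Reads from chromatin without the mark were not told apart.

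In H3K27ac peaks of ESCs alone the H3K27ac 5mC was 32.3% in ESCs and 61.0% in RA cells, the largest step of the 4 kinds of bins. The RA value rests on 0.370 scaled counts per kb, against 1.21 in ESCs. In H3K27ac peaks of RA cells alone the H3K27ac 5mC was 50.6% and 51.7%, at 0.424 and 1.14 scaled counts per kb. H3K4me1 5mC of RA cells did not separate these kinds, at 57.6% in the former and 57.7% in the latter. These bins were sorted by the H3K27ac peaks of the same libraries, so that the ESC and RA values are a description. XEN cells were not used for the sorting, and there the libraries labelled H3K4me1 had 32.9% and 33.5% in bins acetylated in both states, 63.2% and 63.9% in those of RA cells alone, 74.0% and 73.5% in those of ESCs alone and 74.4% and 74.2% outside. The libraries labelled H3K27ac had 53.4% and 53.5%, 65.1% and 65.0%, 67.6% and 67.6%, and 70.0% and 70.0%. The 2 replicates of a labelled mark differed by less than 1 point in each kind of bin.

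**Figure D2:**
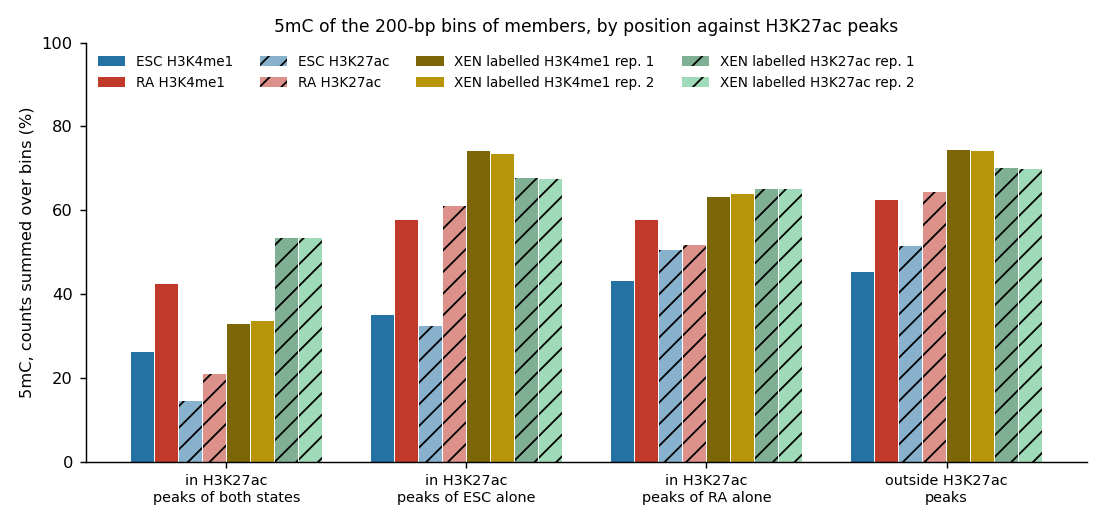
5mC (%, vertical axis) of the bins of members in the 8 libraries, with the bins grouped by whether they lie in H3K27ac peaks of both states, of ESCs alone, of RA cells alone or of neither (horizontal axis). Bars are counts summed over all bins of a kind, with no error bar. Bins acetylated in both states are lowest, from 14.4% in H3K27ac of ESCs to 53.5% in XEN libraries labelled H3K27ac.

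The 2 marks also covered different bins of a member. H3K4me1 counts were highest at the centre of the H3K4me1 peak, at 0.432 scaled counts per bin and region in ESCs, and were 0.271 at 1200 bp from it. H3K27ac counts were lower at the centre (0.300 in ESCs) than at 1200 bp (0.424), and so they were in RA cells (0.345 and 0.477). 5mC of H3K27ac chromatin followed the opposite course, with 23.4% at the centre and 13.02% at 1200 bp in ESCs and 31.4% and 16.2% in RA cells. 5mC of H3K4me1 chromatin was flatter, with 30.6% and 33.4% in ESCs and 46.8% and 48.4% in RA cells. Bins acetylated in both states held 52.7% and 65.2% of the members' H3K4me1 counts in ESCs and RA cells, and 73.8% and 81.8% of their H3K27ac counts.

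**Figure D3:**
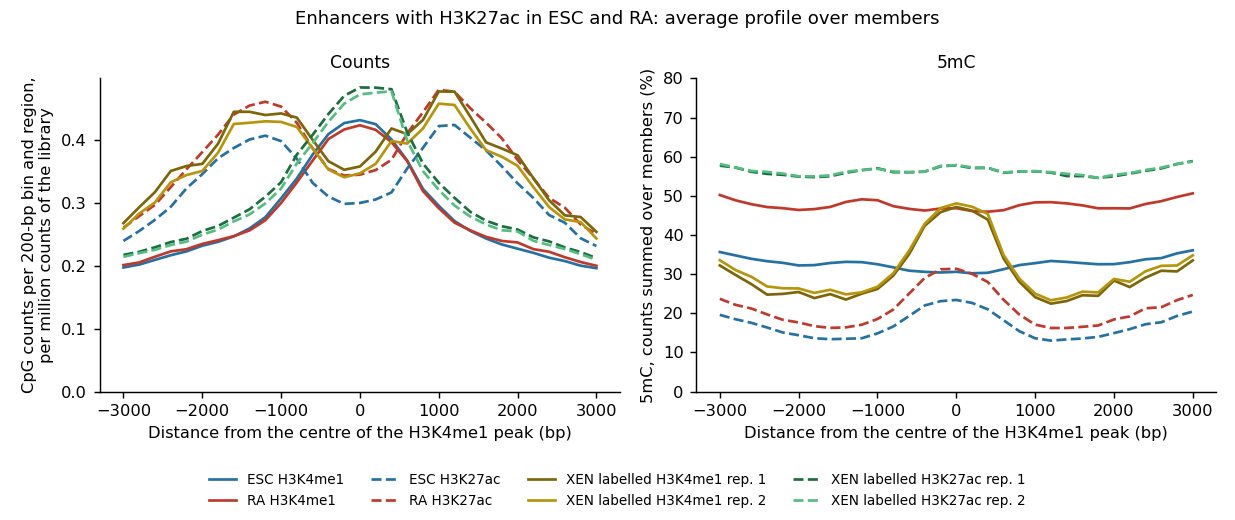
Average profile over the 31791 members by distance from the centre of the H3K4me1 peak (bp, horizontal axes). The left panel gives CpG counts per 200-bp bin and region, scaled to 1000000 counts of the library, and the right panel 5mC (%) of the summed counts, with 1 line per library. H3K27ac of ESCs and RA cells and the XEN libraries labelled H3K4me1 dip in counts at the centre and peak there in 5mC, at 23.4%, 31.4%, 47.2% and 48.1%, while the other libraries have their highest counts near the centre.

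Summed over whole regions, H3K4me1 chromatin had more 5mC than H3K27ac chromatin. In ESCs the median difference over 29372 members was 5.39 points, and 2327 members (7.92%) were called higher in H3K4me1 and 236 (0.804%) lower, beside 4.2% and 1.7% of 84786 peaks. In RA cells the median difference over 29439 members was 9.16 points, and 6688 members (22.7%) were called higher and 73 (0.248%) lower, beside 14.9% and 0.662% of 67992 peaks.

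Within the same bins most of this difference was not seen. Each bin of a member was compared between the libraries and the bins combined as a Mantel-Haenszel difference, with the Cochran-Mantel-Haenszel test adjusted over all peaks. This comparison was added after the data had been seen. In ESCs the median difference over members was -0.49 points (quartiles -3.70 and 2.29), and 14 members were called higher in H3K4me1 and 23 lower (0.0477% and 0.0783%, beside 0.0484% and 0.125% of all peaks). In RA cells the median was 2.77 points (quartiles -0.552 and 6.32), and 125 members were called higher and 11 lower (0.425% and 0.0374%, beside 0.535% and 0.0838% of all peaks). The change from ESCs to RA cells did not behave so. Within bins its median was 16.2 points in H3K4me1 and 8.02 points in H3K27ac, with 10864 and 5285 members called higher and 112 and 193 lower. In H3K4me1 these were 35.2% and 0.363% of the members tested, beside 33.6% and 0.71% of all peaks, and in H3K27ac 18.5% and 0.675%, beside 21.0% and 0.883%.

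**Figure D4:**
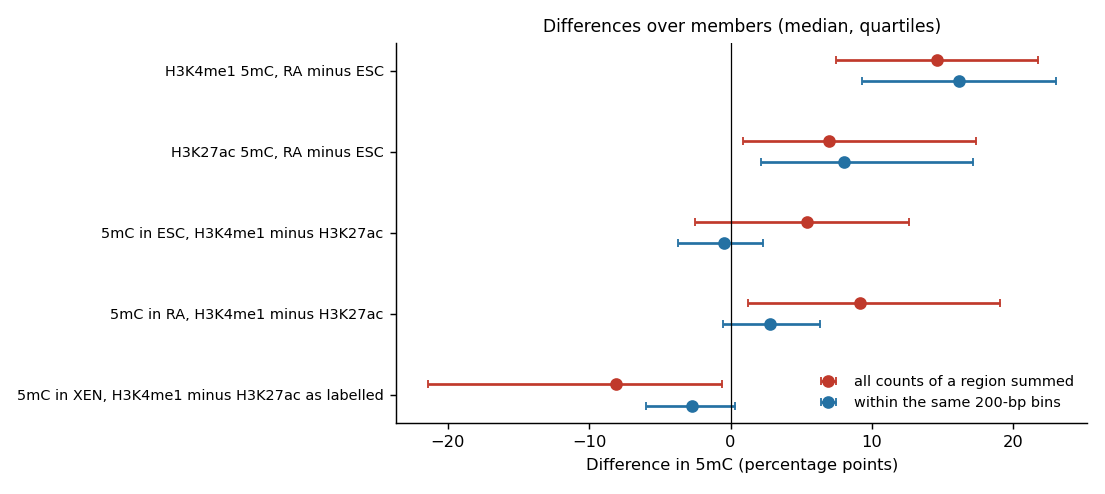
Difference in 5mC (percentage points, horizontal axis) over members for 5 comparisons (vertical axis), with points at the median and bars between quartiles. Red points use all counts of a region and blue points compare the same 200-bp bins. The change from ESCs to RA cells is alike both ways (14.6 and 16.2 points in H3K4me1), whereas the difference between the marks shrinks within bins, from 5.39 to -0.49 points in ESCs and from 9.16 to 2.77 points in RA cells.

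Single bins showed the same. In RA cells 37395 bins of members had at least 30 counts in both marks and lay in peaks of both, with a median H3K4me1 excess of 2.82 points. Of these bins, 225 (0.602%) were called higher in H3K4me1 and 3 (0.00802%) in H3K27ac, beside 0.625% and 0.0115% of all bins in peaks of both marks. The called bins lay in 215 and 3 members of the 14789 that held such a bin. In ESCs 18 bins were called higher in H3K4me1 and 3 in H3K27ac out of 37986, where the median difference was 0.27 points. These were 0.0474% and 0.0079% of them, beside 0.0541% and 0.00973% of all such bins. With a difference of more than 20 points alone and no test, 1674 bins of members (4.48%) were higher in H3K4me1 and 170 (0.455%) in H3K27ac in RA cells, beside 4.64% and 0.606% of all such bins. In ESCs 422 (1.11%) and 326 (0.858%) were, beside 1.36% and 1.03%.

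The members with the widest gap between the marks in RA cells illustrate it. At chr19:40969685-40981964, a member of 12280 bp, H3K4me1 5mC was 46.4% in ESCs (95% exact interval 42.1 to 50.6, 550 counts) and 64.1% in RA cells (59.1 to 68.9, 390 counts). H3K27ac 5mC was 8.17% in ESCs (6.30 to 10.4, 747 counts) and 6.87% in RA cells (4.999 to 9.18, 611 counts). The XEN libraries labelled H3K4me1 gave 4.12% and 3.13% and those labelled H3K27ac 58.5% and 65.0%. The gap in RA cells was 57.2 points (Fisher's exact test, adjusted p = 1.68e-84) over the region and 8.68 points within bins (adjusted p = 0.346).

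At chr3:122970624-122972717 H3K4me1 5mC was 22.2% in ESCs and 61.5% in RA cells, while H3K27ac 5mC was 5.03% and 4.40%. The gap of 57.1 points in RA cells was -0.07 points within bins. The opposite sign was largest at chr13:96138458-96144593, where H3K4me1 5mC was 32.1% and H3K27ac 5mC 70.5% in RA cells, and at chr11:120652851-120657193, with 23.3% and 50.3%. Within bins these differences were -4.36 and -3.91 points. None of the 4 regions named for the marks in RA cells was called within bins.

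Whether the change from ESCs to RA cells differed between the marks was tested as an interaction in edgeR on the counts summed over regions in the 8 libraries, in which the spread was estimated from the XEN replicates alone and assumed for the single libraries. Of 19211 members with at least 30 counts in each library, 76 (0.396%) changed by more in H3K4me1 and 15 (0.0781%) by more in H3K27ac at an adjusted p under 0.05. Over all 31571 peaks the shares were 0.602% and 0.155%. The median difference between the changes over members was 6.03 points in the direction of H3K4me1, and 74.0% of members had that direction, beside 6.03 points and 73.4% over all peaks.

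XEN cells kept counts at the members more than at H3K4me1 peaks without H3K27ac. Members had a median of 1.13 and 1.15 scaled counts per kb in the 2 XEN libraries labelled H3K4me1, and 1.46 and 1.48 in those labelled H3K27ac. Peaks with no H3K27ac in either state had 0.258 and 0.319, and 0.623 and 0.702. Peaks with H3K27ac in ESCs alone had 0.215 and 0.279, and 0.412 and 0.467, and those with H3K27ac in RA cells alone 0.989 and 1.08, and 2.07 and 2.07. Members were thus above the classes without H3K27ac in RA cells in each XEN library, but below the class acetylated in RA cells alone in the libraries labelled H3K27ac. The XEN tables list only bins with at least 4 counts, so low densities are understated.

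Median 5mC of members in XEN cells was 50.7% and 53.3% in the libraries labelled H3K4me1 (mean 51.99% ± 1.82, SD, n = 2) and 58.5% and 58.9% in those labelled H3K27ac (mean 58.7% ± 0.29, SD, n = 2). Over all H3K4me1 peaks it was higher, at 62.5% and 62.0% in replicate 2 of each labelled mark. Under 20% 5mC were 25.4% and 23.9% of members in the libraries labelled H3K4me1 and 3.72% and 2.96% in those labelled H3K27ac, beside 17.7% and 15.4%, and 3.85% and 3.00%, over all peaks. Over single members the replicates of a mark differed by a median of 4.82 points where labelled H3K4me1 and 4.03 points where labelled H3K27ac.

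The order of 5mC over members was alike in RA and XEN cells, as it was over all H3K4me1 peaks. 5mC of H3K27ac in RA cells and of the XEN libraries labelled H3K4me1 had Spearman correlations of 0.92 and 0.92 over 21137 and 23892 members, and 0.84 and 0.84 with those labelled H3K27ac. 5mC of H3K4me1 in RA cells had 0.84 and 0.84 with the libraries labelled H3K4me1, and 0.88 and 0.89 with those labelled H3K27ac. For counts per kb, H3K4me1 of RA cells had 0.81 and 0.84 with the XEN libraries labelled H3K27ac and 0.54 and 0.57 with those labelled H3K4me1. H3K27ac of RA cells had 0.76 and 0.78 with those labelled H3K4me1 and 0.61 and 0.63 with those labelled H3K27ac. Over all peaks the correlations with the RA libraries lay between 0.82 and 0.90 for 5mC and between 0.60 and 0.88 for counts per kb. These are descriptions over regions that share base composition and CpG content. In each of these cases the XEN libraries were nearer to the RA library of the other mark than to that of the mark on their label. With ESCs this held for counts per kb, where H3K4me1 had 0.28 and 0.32 with the libraries labelled H3K4me1 and 0.48 and 0.46 with those labelled H3K27ac. H3K27ac of ESCs had 0.47 and 0.49 with the former and 0.30 and 0.30 with the latter. For 5mC it held in part. The libraries labelled H3K4me1 had 0.82 and 0.82 with H3K27ac of ESCs and 0.71 and 0.72 with H3K4me1, but those labelled H3K27ac were also nearer to H3K27ac of ESCs, at 0.74 and 0.74 against 0.69 and 0.71.

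Members that stayed unmethylated in ESCs and RA cells were also the low ones in XEN cells. Of the 1174 members under 20% in the 4 ESC and RA libraries, 96.5% and 94.8% of those covered were under 20% in the XEN libraries labelled H3K4me1, with medians of 3.23% and 3.88%. In the libraries labelled H3K27ac 46.9% and 41.5% were, with medians of 20.6% and 21.9%. The 1762 members that passed from under 20% to over 30% in H3K4me1 had medians of 18.9% and 20.9%, and 46.3% and 46.6%. The 5559 members called higher in H3K27ac of RA cells had 71.9% and 71.7%, and 70.7% and 70.7%, and the 258 called lower had 41.4% and 42.5%, and 51.6% and 51.7%. XEN cells also received retinoic acid, at 0.1 µM, so they are not a group without it.

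Between the marks in XEN cells the direction by label was the reverse of that in ESCs and RA cells. Of 19481 members with at least 30 counts in each of the 4 libraries, edgeR's quasi-likelihood test called 7906 (40.6%) lower and 330 (1.69%) higher in the libraries labelled H3K4me1, beside 34.6% and 1.94% of 34419 peaks. With the marks as the names of the tables give them, the same 40.6% would be higher in H3K4me1 and 1.69% lower, which is the direction of ESCs and RA cells, and the signs of all XEN differences below would turn as well. Both replicates labelled H3K4me1 were below both labelled H3K27ac in 11438 members (58.7%) and above both in 1936 (9.94%), beside 54.2% and 10.9% of all peaks tested. The median difference was -8.07 points. With a difference of more than 20 points asked as well, 5285 (27.1%) were lower and 117 (0.601%) higher, beside 21.0% and 0.572%.

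Within bins, with the replicates summed, the median XEN difference was -2.73 points, and 97 members (0.498%) were called lower and 12 (0.0616%) higher, beside 0.459% and 0.0755% of all peaks. For the 4 pairings of 1 library of each mark the within-bin median lay between -2.96 and -2.50 points. By label this sign is opposite to that in RA cells (2.77 points), and by the names of the tables it is the same.

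The member with the largest negative XEN difference, chr12:33832710-33835417, had 6.55% and 4.37% in the libraries labelled H3K4me1 (95% exact intervals 3.31 to 11.4 and 2.11 to 7.88) and 75.6% and 76.9% in those labelled H3K27ac (66.9 to 83.0 and 69.2 to 83.4). In ESCs and RA cells its H3K4me1 5mC was 43.6% and 54.1% and its H3K27ac 5mC 10.3% and 10.1%. Next came chr3:122970624-122972717, described above, and chr4:88362627-88368077, with 9.81% and 9.29% against 76.2% and 76.2%. At these 3 members the low values were those of H3K27ac in ESCs and RA cells and of the libraries labelled H3K4me1 in XEN cells. The difference at chr12:33832710-33835417 was -70.8 points (edgeR, adjusted p = 2.32e-11). Within bins it was -31.0 points, and at the other 2 regions, in the order named, -10.6 and -17.8 points, so that a difference of more than 20 points was left at the first alone.

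The largest positive difference was at chr8:47637907-47645768, with 83.8% and 72.8% in the XEN libraries labelled H3K4me1 and 24.8% and 32.9% in those labelled H3K27ac (49.4 points, edgeR, adjusted p = 4.53e-07). Its ESC and RA values lay close together, at 47.7% and 39.8% in H3K4me1 and 41.4% and 48.3% in H3K27ac. The members chr16:44725344-44732732 and chr2:84512117-84517985 followed, with 53.9% and 60.4% against 20.9% and 25.0%, and with 62.3% and 63.0% against 28.1% and 35.3%. At the former the sign turned, to a log2 odds ratio of -0.41, when only bins listed in all 4 XEN tables were used. Within bins none of the 3 positive differences had an adjusted p under 0.05. They were 13.4 points at chr8:47637907-47645768 (Cochran-Mantel-Haenszel test over bins, adjusted p = 0.256), 2.22 points at chr16:44725344-44732732 (adjusted p = 0.814) and -0.85 points at chr2:84512117-84517985 (adjusted p = 0.929).

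**Figure D5:**
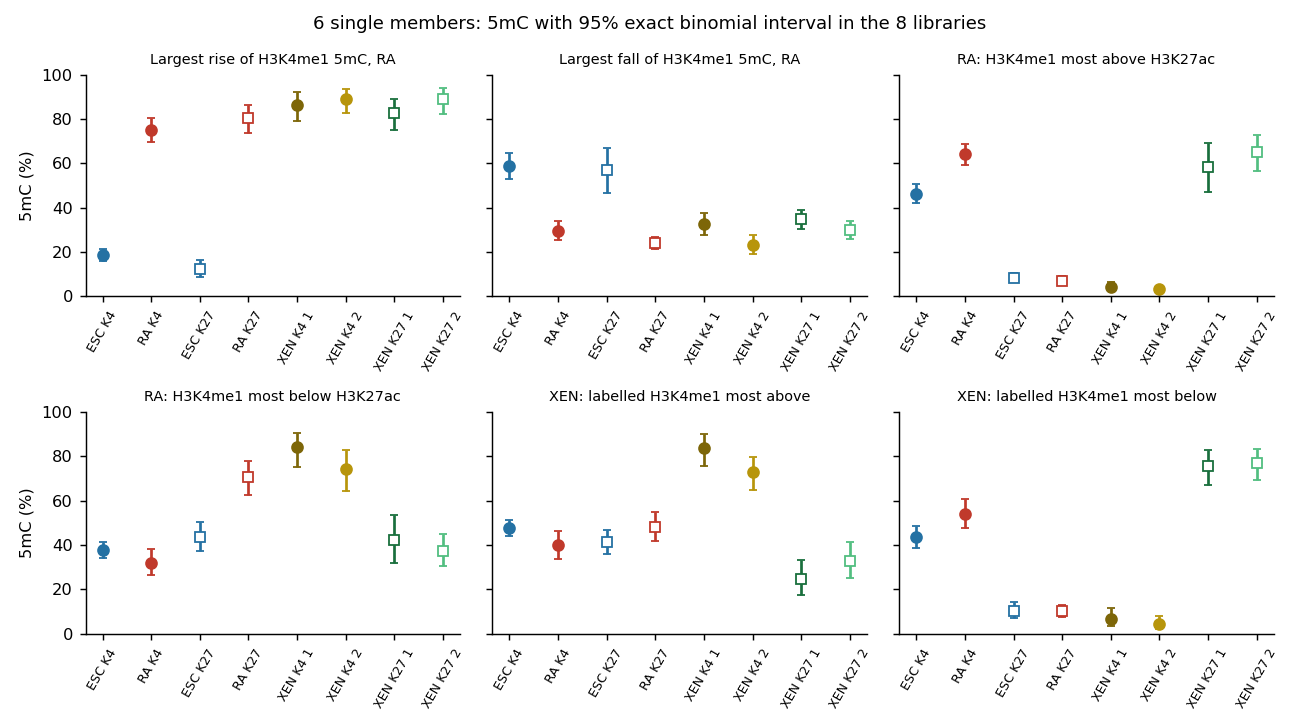
5mC (%, vertical axes) of 6 single members in the 8 libraries (horizontal axes, K4 for H3K4me1 and K27 for H3K27ac as labelled, with the XEN replicate number), with 95% exact binomial intervals that cover counting error only. Filled circles are H3K4me1 and open squares H3K27ac. In the first 2 panels both ESC libraries stand apart from the other 6 (18.6% and 12.3% in the first), and in the other 4 panels the XEN libraries labelled H3K4me1 lie nearer to H3K27ac than to H3K4me1 of RA cells.

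By counts in the ESC and RA libraries the first member was chr17:39979860-39985862, with H3K4me1 5mC of 0.812% in ESCs and 2.75% in RA cells, a rise of 1.94 points that was not called. Next came a pair of long members. At chr4:141048121-141093690, of 45570 bp, H3K4me1 5mC was 31.1% in ESCs (95% exact interval 30.1 to 32.1, 8983 counts) and 55.1% in RA cells (53.9 to 56.2, 7371 counts), and H3K27ac 5mC was 20.9% and 38.2%. At chr17:47996985-48060540, of 63556 bp, H3K4me1 5mC was 26.5% and 52.6% and H3K27ac 5mC 19.6% and 42.0%. The XEN libraries gave 62.5% to 68.5% at chr4:141048121-141093690 and 67.6% to 70.6% at chr17:47996985-48060540. In both the rise from ESCs to RA cells was called in H3K4me1, at 24.0 and 26.1 points. In the latter the rise was also called in H3K27ac, at 22.4 points.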

How the data were processed

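ChIP-BS-seq libraries of H3K4me1 and H3K27ac from ESCs, RA cells and XEN cells were used. The authors aligned reads to mm9 with Bismark, discarded reads whose CpGs disagreed in state, and deposited for each 200-bp bin 2 raw counts, of methylated and of unmethylated CpGs. The authors called the deposited peak lists with HOMER, and the score per peak in them was not used. Mitochondrial DNA, which is nearly free of 5mC, was used to tell the columns apart, and the methylated count stands second in the XEN tables. Its counts were 0.383% and 3.23% methylated in H3K4me1 of ESCs and RA cells, and 3.55% and 6.44% in H3K27ac. In the XEN libraries the share was 0.242% at most. 5mC of the regions was not corrected for these shares. Tool versions are not given in the sources used here, and whether an ESC or RA table pools repeats was not established. The study speaks of repeated experiments, but the sources used here do not say whether the XEN replicates were separate cultures, so p-values may measure technical spread.

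The members and the lists were chosen with earlier results of these data known. Counts of all bins touching an H3K4me1 peak of ESCs were summed per library, 5mC is methylated over all counts, and regions needed at least 30 counts. Pairs of single libraries were compared with two-sided Fisher's exact tests, and the XEN marks with edgeR's quasi-likelihood test, both with Benjamini-Hochberg adjustment over all peaks tested. Intervals are 95% Clopper-Pearson and, like counts of PCR reads, cover counting error only. Named regions had at least 100 counts in the libraries concerned, were called and had the largest differences (3 each way per comparison, 2 for the marks in RA cells), or had the most counts (3), or lay next to the length limit (2 on each side). The tests were tested on simulated data. Deviations of same-numbered XEN libraries had a correlation of -0.00831, and the main test did not use the replicate numbers as pairs. Such a correlation cannot show whether same-numbered libraries came from the same culture. The XEN replicate tables were not copies of each other (chi-square per degree of freedom of 4.59 where labelled H3K4me1 and 4.27 where labelled H3K27ac, which duplicated reads also raise), and each was counted as a replicate because its label says so. Input, H3K36me and single-cell samples were not used here. Python 3.11.15, numpy 2.4.6, pandas 2.3.3, scipy 1.17.1, R 4.3.3 and edgeR 4.0.16 were used. Alternatives were other count minimums, thresholds, bins, overlaps and tests, and leaving out each XEN library.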

Additional observations from a re-analysis of the deposited data

Results flagged for a closer look

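The change in 5mC from ESCs to RA cells differed between the marks in a small share of members by the interaction test in edgeR over the 8 libraries. It was larger in H3K4me1 in 76 members and larger in H3K27ac in 15, of 19211 tested (0.396% and 0.0781%). Over all 31571 peaks the shares were 0.602% and 0.155%. The test used counts summed over whole regions, and the spread came from the XEN replicates alone.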

How the results depend on the processing

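The counts of members called rose to 19554 (H3K4me1) and 9706 (H3K27ac) for RA cells against ESCs and to 9836 (ESCs) and 12599 (RA cells) for the marks when more than 10 points were asked, and fell to 2286, 2174, 301 and 2181 with more than 30 points. Members overlapped by at least 50% in each list, a smaller set, gave 2700, 1361, 760 and 2099, and 2963 for the marks in XEN cells. edgeR over the 8 libraries, with fewer members covered, gave 6075 and 3637 for RA cells against ESCs. A minimum of 100 counts gave 3332 for H3K27ac and 4694 for XEN cells. Only bins wholly inside the peak gave 1609 for the marks in ESCs. Comparison within bins, added after seeing the data, gave 37 in ESCs and 136 in RA cells. In XEN cells a difference of more than 20 points, also added, gave 5402, and within bins 109, while bins listed in all 4 tables gave 5405. Without 1 XEN library the count lay between 6355 and 8432. A lone library was then assumed to vary like the others. With a replicate block it was 8181 against 8236, and the 6 regions named for XEN cells kept their calls. The share of UMRs that stayed was 18.4% with UMRs under 10%, 24.2% with at least 100 counts and 29.4% with overlap of at least 50%. Median 5mC in XEN cells was 45.0% (bins in all 4 tables), 46.9% (60 counts) and 41.2% (100 counts) where labelled H3K4me1, with 50.7% to 53.3% without a replicate, and 55.9%, 58.0% and 57.95% where labelled H3K27ac, with 58.45% to 58.9% without a replicate. The sign turned in 4 named regions. Within bins these were chr11:58121134-58123156 (5.96 points), chr3:122970624-122972717 (-0.0675 points, marks in RA cells) and chr2:84512117-84517985 (-0.852 points, XEN cells), and with bins in all 4 XEN tables chr16:44725344-44732732 (-0.41 on the log2 odds scale). Where no value above bears on it, the cause was not tested. Of the 71 values of named regions under other settings, 60 kept the direction and the call. Depth limits single members most in XEN cells, where 19481 members had at least 30 counts in each library against 28445 in ESCs and RA cells.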

Other observations

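Members on chromosome X, of which R1 as a male line has a single copy, had lower 5mC than those on autosomes in each of the 8 libraries. The medians were 26.3% against 35.2% in H3K4me1 of ESCs, 42.2% against 51.2% in H3K4me1 of RA cells, 11.1% against 27.6% in H3K27ac of ESCs and 18.2% against 41.4% in H3K27ac of RA cells. In XEN cells they were 23.1% and 28.7% against 51.2% and 53.7% where labelled H3K4me1, and 52.9% and 51.9% against 58.6% and 59.0% where labelled H3K27ac. The median change from ESCs to RA cells was 14.5 points on chromosome X and 14.6 points on autosomes in H3K4me1, and 5.74 and 7.03 points in H3K27ac. The median excess of H3K4me1 over H3K27ac was 11.3 points on chromosome X and 5.25 points on autosomes in ESCs, with 16.2% and 7.71% of members called higher, and 15.96 and 9.01 points in RA cells, with 35.8% and 22.4% called higher. The difference between chromosome X and autosomes was not tested. All these values use counts summed over whole regions. They were not computed within bins by chromosome, nor over all H3K4me1 peaks of chromosome X. Members on chromosome X were shorter, with a median of 2597 bp against 3556 bp, and 818 members are concerned.

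The member with the most counts in the ESC and RA libraries, chr17:39979860-39985862, was almost free of 5mC in all 8 libraries, between 0.812% and 3.37%. It held 11096 CpG counts in H3K27ac of ESCs over 6003 bp, beside a median of 158 counts per member. Neither the copy number of this region nor the mapping of its reads was examined. In the XEN libraries single bins held up to 51510 counts, against 1128 in ESCs and RA cells, and the 10 members with the most XEN counts held 2.29% of all XEN counts at members.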
